A study of Mus musculus with 2 samples.

Results

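The regions described here are accessible sites of the adult mouse cerebral cortex that lie between genes and far from any gene start. They were mapped by DNase-seq, where the enzyme DNase I nicks open chromatin of isolated nuclei and sequencing reads out the positions of the cuts. A member is a peak of the stricter deposited list that overlapped a stricter peak of the other library by 1 bp or more, on an autosome, with its midpoint outside every GENCODE M21 gene body and 50 kb or more from every annotated transcript start. Replicate 1 held 940 such peaks and replicate 2 held 945, out of 30248 and 30106 autosomal peaks shared in the same way. They formed 927 sites at which members of both libraries overlapped. Besides a call in the stricter list of both libraries, only position entered this choice. Peaks in this position that the stricter list of the other library lacked were weaker. The 2 libraries form 1 group: the left cerebral cortex from B6CASTF1/J males, 8 to 10 months of age, hybrids of a laboratory strain and a castaneus strain, with no treatment and no comparison group. The labels name them biological replicates 1 and 2 with separate biosamples and the same donor identifier, so it is not known whether the spread between them covers different animals. The tissue is a mixture of cell types, and a site open in fewer cells cannot be told apart from one that is less open in each cell. Stricter peaks lay at the starts of the neuronal genes Snap25, Syt1, Rbfox3 and Neurod6 and of the astrocyte gene Slc1a2 in both libraries. None lay at those of Alb, Myh6 or Hbb-bs, markers of liver, heart and red blood cells. None lay at those of Slc17a7, Gad1, Aqp4, Cldn5 or Cx3cr1 either, although these mark cell types of cortex. Gad2 had such a peak in replicate 2 only and Mbp in replicate 1 only.

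Accessible DNA far from gene starts includes enhancers, which bind transcription factors and can act on promoters at a distance, and sites of CTCF, a zinc-finger protein that, with cohesin, anchors chromatin loops. Factors of the basic helix-loop-helix family, such as the neuronal NEUROD proteins, bind short sequences called E-boxes. Where a protein sits on open DNA it shields the bases beneath it from DNase I and leaves a footprint, a short stretch with few cuts.

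The following sequences show what such sites look like. All are the plus strand of mm10 (GRCm38.p6), 5′ to 3′, and come from the reference, so castaneus alleles are not represented. The first pair are the strongest sites by the worse of their ranks in the libraries. The one on chromosome 1 lay between Cntnap5b, 2376 kb away, and Cdh20, 2140 kb away, and its capitals mark a match to the NEUROD-type E-box CAGATGG. The one on chromosome 8 lay 72.7 kb from the start of Irf2bp2, which encodes a transcriptional corepressor, and its capitals mark a match to the SRF consensus and, after it, 2 matches to the NFI consensus.
chr1:102628181-102628360: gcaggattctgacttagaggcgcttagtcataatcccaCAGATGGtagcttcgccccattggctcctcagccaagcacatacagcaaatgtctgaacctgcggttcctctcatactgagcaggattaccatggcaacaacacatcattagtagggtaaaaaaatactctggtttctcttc
chr8:126666521-126666760: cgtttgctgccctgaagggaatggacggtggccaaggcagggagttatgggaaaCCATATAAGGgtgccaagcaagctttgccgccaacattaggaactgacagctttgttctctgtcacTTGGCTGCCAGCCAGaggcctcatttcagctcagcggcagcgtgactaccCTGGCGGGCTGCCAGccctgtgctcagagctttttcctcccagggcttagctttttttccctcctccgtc

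The next sequence is most of a strong site on chromosome 7. GENCODE M21 has no gene there, but RefSeq places the glutamic acid tRNA gene n-TEttc7 at chr7:58399315-58399386 on the plus strand. Capitals mark its 72 bases, followed by a run of T.
chr7:58399101-58399400: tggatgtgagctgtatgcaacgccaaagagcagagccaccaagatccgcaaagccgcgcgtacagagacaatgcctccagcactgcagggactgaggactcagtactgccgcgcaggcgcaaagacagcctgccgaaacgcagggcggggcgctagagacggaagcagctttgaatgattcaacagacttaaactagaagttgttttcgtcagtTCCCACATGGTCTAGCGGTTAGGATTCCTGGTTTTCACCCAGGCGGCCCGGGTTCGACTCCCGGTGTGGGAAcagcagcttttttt

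The last sequences are, for each of 4 motifs, the strongest site with a match inside a footprint of both libraries, with the match in capitals. They are in turn a CTCF match between Chd7 and Clvs1, a NEUROD-type E-box, read on the minus strand, between Edn3 and Gm14444, an E-box CAGCTG of the type bound by ASCL and TCF factors between Kif2a and Smim15, and an AP-1 match TGAGTCA, read on the minus strand, between Lrig3 and Atp23. AP-1 is the dimer of FOS and JUN proteins. In the AP-1 site a stretch of 44 bases occurred again, without a change, 77 bases further on, so that the letters of the marked match stand there more than once. It was 1 site of 927 with an exact internal repeat of 30 bp or more, against a median of 7 bp over all sites.
chr4:9135881-9136080: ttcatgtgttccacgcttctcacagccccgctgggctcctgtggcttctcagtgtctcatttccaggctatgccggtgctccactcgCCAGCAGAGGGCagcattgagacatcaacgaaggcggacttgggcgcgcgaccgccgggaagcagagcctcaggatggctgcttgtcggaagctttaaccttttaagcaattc
chr2:174932761-174933020: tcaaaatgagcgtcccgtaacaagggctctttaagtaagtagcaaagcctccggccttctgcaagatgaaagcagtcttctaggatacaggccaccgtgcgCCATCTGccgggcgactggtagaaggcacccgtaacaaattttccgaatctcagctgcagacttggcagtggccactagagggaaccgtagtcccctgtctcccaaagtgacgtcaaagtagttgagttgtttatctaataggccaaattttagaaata
chr13:107114041-107114180: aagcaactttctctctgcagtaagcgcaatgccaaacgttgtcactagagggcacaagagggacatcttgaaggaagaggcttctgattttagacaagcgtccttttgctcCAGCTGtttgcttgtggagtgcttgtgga
chr10:126511601-126511820: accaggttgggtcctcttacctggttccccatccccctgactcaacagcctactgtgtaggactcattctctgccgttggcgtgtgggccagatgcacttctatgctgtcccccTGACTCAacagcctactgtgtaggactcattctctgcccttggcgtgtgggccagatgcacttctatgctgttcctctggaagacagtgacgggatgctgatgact

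Distant intergenic peaks were sparse and weak beside other accessible sites of the same cortex. The DNA that met the position rule made up 371.1 Mb, 15.5% of the known autosomal bases, and held 2.53 members per Mb in replicate 1 and 2.55 in replicate 2. Intergenic DNA 1 to 50 kb from a start held 7.02 and 7.01 shared peaks per Mb. The members' density was 0.362 ± 0.00175 of that (SD, n = 2 libraries). Because a shared peak needs a peak of the other library, these counts are nearly equal by construction. The SD of this density ratio therefore does not measure how far the libraries differ. Before sharing was required, 1438 and 1291 stricter peaks lay in the members' position and 8071 and 7426 in nearer intergenic DNA. Median signal strength, the deposited value of each peak, was 0.900 in replicate 1 and 0.796 in replicate 2, with quartiles of 0.654 and 1.317, and 0.593 and 1.176. Nearer intergenic peaks had medians of 1.29 and 1.17, and the members' median was 0.690 ± 0.0113 of theirs. The members' median was 0.856 ± 0.00583 of that of shared peaks inside gene bodies 50 kb or more from a start, and 0.453 ± 0.0110 of that of peaks within 1 kb of a start. Each of these gaps was wider than the difference between the libraries. Median widths were 198 and 191 bp, against 196 and 200 bp for nearer intergenic peaks, 189.5 and 180 bp for distant peaks inside genes and 260 and 280 bp for start-proximal peaks.

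**Figure D1:**
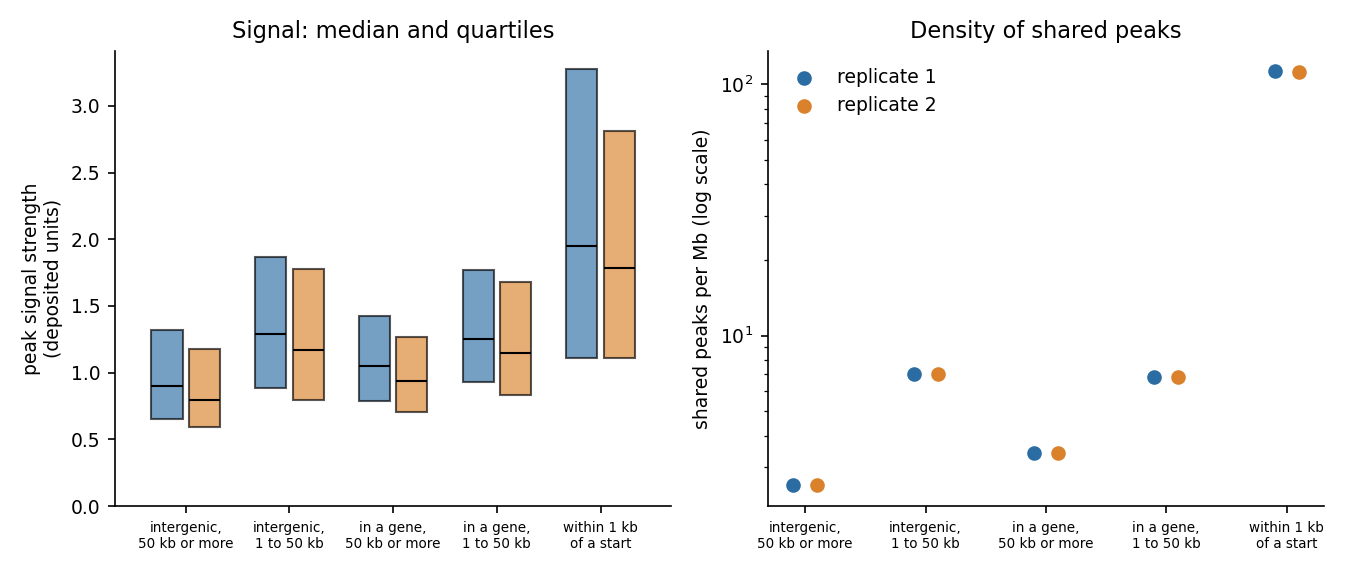
Left, peak signal strength (deposited units) of shared peaks in 5 classes of position, as boxes from the lower to the upper quartile with a line at the median, for each library. Right, shared peaks per Mb of the DNA of each class, on a log scale. The distant intergenic class has the lowest median, 0.900 and 0.796, and the lowest density, 2.53 and 2.55 per Mb, of the 5 classes in both libraries.

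Within the intergenic peaks signal fell little beyond the chosen distance. Peaks 40 to 50 kb from a start, just outside the limit, had median signals of 1.04 and 0.889 in replicates 1 and 2, and those at 50 to 60 kb, just inside, had 0.934 and 0.833. At 100 to 200 kb the medians were 0.829 and 0.759, and the 43 and 42 members 200 kb or more away had 0.834 and 0.750. These last medians do not differ from those at 100 to 200 kb by more than the libraries differ from each other. The share of intergenic peaks found in both libraries was lowest at that distance, 53.1% of 81 peaks in replicate 1 and 63.6% of 66 in replicate 2.

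Of all stricter peaks in this position, members made up 65.4% of 1438 in replicate 1 and 73.2% of 1291 in replicate 2. The corresponding shares of nearer intergenic peaks were 72.1% and 78.3%. The 498 and 346 peaks that the other library's stricter list lacked were weak, with median signals of 0.597 and 0.50. Of these, 71.9% and 68.8% overlapped the other library's larger peak list, and 78.1% and 80.3% held an interval that the other library's table of false discovery rates lists, which keeps values under 0.05. No listed interval of the other library fell in the remaining 109 and 68 peaks.

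Where both libraries called a member, they ranked the sites alike. Over 903 pairs of members that overlapped no other member, the correlation of log2 signal across sites was Pearson's r = 0.881 and Spearman's rho = 0.861. This is a description across sites of 2 libraries, and sites are not replicates. Of the pairs, 99.3% lay within 2-fold, and the median log2 ratio of replicate 2 to replicate 1 was -0.11. All 6 pairs beyond 2-fold were lower in replicate 2, with no scaling between the libraries. The most unequal site, chr3:48846361-48846580, 909 kb from the start of the protocadherin gene Pcdh18, had a signal of 1.13 in replicate 1 and 0.454 in replicate 2. A site at chr13:84758617-84758840, 431 kb from the cyclin H gene Ccnh, had 2.58 and 1.19. The pair with the largest ratio in the other direction, chr7:111249741-111249940, 167 kb from the translation factor gene Eif4g2, had 1.74 and 3.22.

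**Figure D2:**
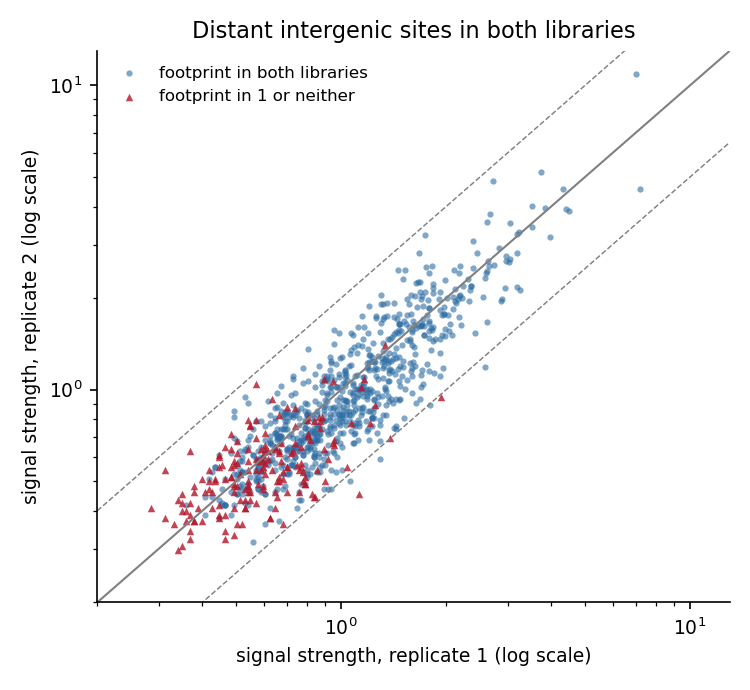
Signal strength of the 927 distant intergenic sites in replicate 1 (x axis) and replicate 2 (y axis), in deposited units on log scales. The solid line marks equal values and the dashed lines a 2-fold difference, blue points have a footprint in both libraries and red triangles in 1 or neither. Points run along the line of equal values, and the sites without a footprint in both libraries sit mostly at low signal.

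Footprints were present in most members. At least 1 footprint had its midpoint in 843 of 940 members of replicate 1 (89.7%, exact 95% binomial interval 87.6 to 91.5) and in 823 of 945 of replicate 2 (87.1%, 84.8 to 89.2). All shared peaks had one in 90.9% and 90.6% and start-proximal peaks in 88.6% and 89.6%. Nearer intergenic peaks had one in 94.6% and 93.1%, the members differing from them by -5.48 ± 0.804 percentage points (SD, n = 2). Per 100 bp of peak the members held 1.17 and 1.13 footprints, against 1.17 and 1.14 in distant peaks inside genes, which is a difference within the spread between the libraries. Of the 927 sites, 752 had a footprint in both libraries and 30 in neither. The members' median signal was lower too, at 0.690 of that of nearer intergenic peaks, and its part in this difference was not tested.

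Like shared peaks of every class, the members were richer in G and C than the DNA around them and held fewer repeats. In 150 bp windows at their midpoints the median GC content was 51.3% in both libraries, against 44.0% in windows 1000 bp to either side and 39.2% in all the DNA of this position. Repeat-masked bases filled 6.34% and 6.22% of the windows on average, 23.8% and 23.6% of the flanks and 39.4% of the territory. All shared peaks had 5.47% and 5.45%, and nearer intergenic peaks 6.64% and 6.78%. A window made mostly of repeats was found in 8 and 7 members, 0.851% and 0.741%, against 0.998% and 1.05% of all shared peaks. Members differed more in windows rich in both GC (over 55%) and CpG (observed over expected above 0.65), as at many promoters. These numbered 29 and 33, or 3.09% and 3.49% of members, against 9.57% and 8.59% of nearer intergenic peaks and 40.5% and 39.4% of all shared peaks, while distant peaks inside genes had 3.15% and 3.31%. How reads that map to many places were treated before deposit is not given.

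Among these windows the site at chr4:9135881-9136080 was the strongest, with signals of 4.41 and 3.93 and a GC content of 64.0% in its central window. Chd7 encodes a chromatin remodeller, and the stretch between it and Clvs1 held 2 further GC- and CpG-rich sites, chr4:9027841-9028060 with signals of 2.35 and 2.19 and chr4:9097141-9097360 with 2.10 and 2.47. Another, at chr9:67633781-67634340, had 78.7% GC in its central window and signals of 1.54 and 1.76. It lay 74.4 kb from the nearest GENCODE coding start, that of Tln2, which encodes the adhesion adaptor talin 2, but 16 bp from a RefSeq start of the same gene.

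The CTCF consensus set the members apart from their surroundings more than any other of the 28 motifs that had a match in the flanks and in 20 or more members. It was found on either strand of the central window in 131 of 940 members of replicate 1 (13.9%, exact 95% binomial interval 11.8 to 16.3) and in 122 of 945 of replicate 2 (12.9%, 10.8 to 15.2). In the flanks it occurred in 1 of 1880 and 1 of 1890 windows. All shared autosomal peaks held it in 9.19% and 8.78% of windows. Nearer intergenic peaks held it more often, in 19.5% (18.4 to 20.5) and 18.6% (17.7 to 19.7), with intervals above those of the members. Their mean was 19.1% ± 0.563, against the members' 13.4% ± 0.726. Distant peaks inside genes held it in 13.3% and 11.6%, and peaks within 1 kb of a start in 2.06% and 1.97%. The intervals here and below cover counting error only. The windows of both libraries were read from 1 reference at largely the same sites. Differences between the libraries in motif shares and ratios, and their ± values, therefore do not measure replication.

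CTCF matches sat at the centre of the peaks and inside footprints. Of 142 matches within 300 bp of a midpoint in replicate 1, 124 lay within 40 bp of it, and of 140 in replicate 2, 111 did. Footprints covered the centre of 125 of 137 matches in member peaks of replicate 1 (91.2%) and 109 of 128 in replicate 2 (85.2%), while footprints made up 15.5% and 15.1% of all member bases. These footprints were long, with median widths of 27 and 28 bp against 9 bp in both libraries for the other footprints of members. Members with a match had median signals of 1.19 and 1.03, and those without had 0.853 and 0.778. They were also found again more often: of the stricter peaks in this position, 80.9% of 162 with a match and 63.4% of 1276 without were shared in replicate 1, and 93.8% of 130 against 70.9% of 1161 in replicate 2.

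The exact consensus is a strict measure. With 1 mismatch allowed, a setting added after the sequences had been seen, 32.9% and 31.3% of members had a match, against 1.12% and 1.06% of flanks. Nearer intergenic peaks then had 46.0% and 43.7%, distant peaks inside genes 33.3% and 31.3%, and start-proximal peaks 7.69% and 7.29%. Members and distant peaks inside genes differed by less than the libraries did under either setting. The share followed signal among the sites: 53 of the 100 strongest had such a match and 11 of the 100 weakest. The 10 strongest were different, with 2 matches of this looser kind. Among the printed sequences, the NEUROD-type site on chromosome 2 and the CAGCTG site on chromosome 13 each held one beside the marked E-box. On chromosome 2 the marked E-box itself also lay inside a match with 1 mismatch, read on the minus strand.

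**Figure D3:**
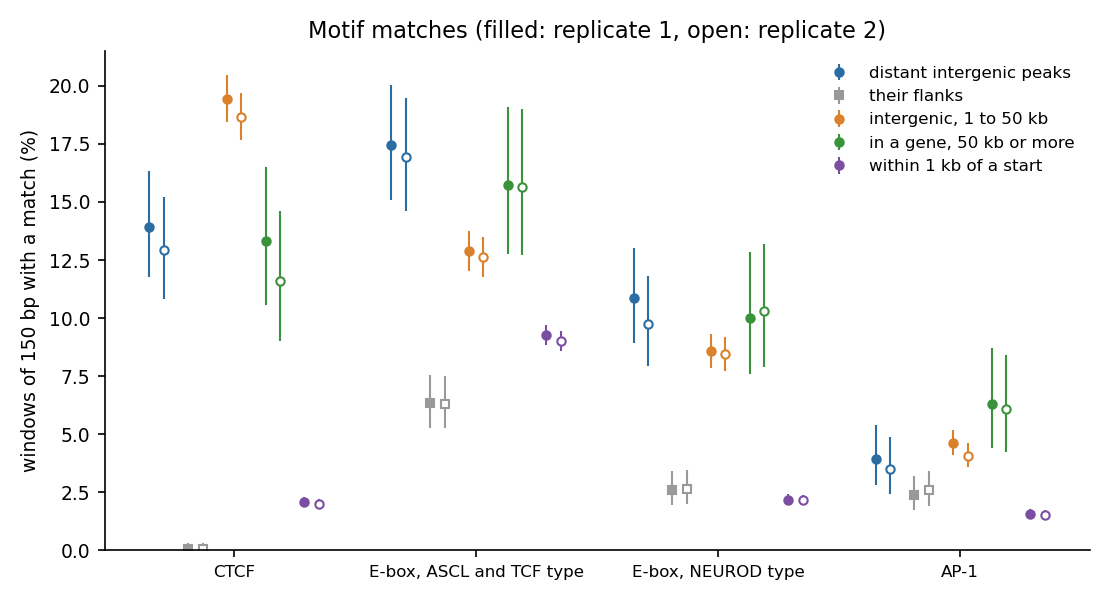
Percentage of 150 bp windows with a match to each of 4 motifs on either strand, in distant intergenic peaks, in flanks 1000 bp to either side of them, and in 3 other classes of shared peaks, with exact 95% binomial intervals. Filled points are replicate 1 and open points replicate 2. CTCF is near 0 in the flanks and at 13.9% and 12.9% in distant intergenic peaks, and both E-boxes stand above the flanks and above the start-proximal peaks.

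E-boxes were more frequent in the members than in their flanks, and CAGCTG also than in nearer intergenic peaks. Median GC content was 51.3% in members, 44.0% in their flanks and 52.7% in nearer intergenic peaks. Its part in these E-box differences was not tested. The NEUROD-type box CAGATGG stood in 102 members of replicate 1 (10.9%, interval 8.94 to 13.02) and 92 of replicate 2 (9.74%, 7.92 to 11.8), which was 3.92 ± 0.342 times its share in the flanks (2.61% and 2.65%). The flanks of nearer intergenic peaks held it in 3.75% and 3.78%, and those peaks in 8.57% and 8.43%, just below the members' counting interval in replicate 1 and inside it in replicate 2. Distant peaks inside genes held it in 10% and 10.3%, inside both intervals. All shared peaks held it in 5.02% and 4.93%. CAGCTG stood in 164 members (17.4%, 15.1 to 20.03) and 160 members (16.9%, 14.6 to 19.5), 2.72 ± 0.0475 times its flank share. Nearer intergenic peaks held it in 12.9% (12.02 to 13.8) and 12.6% (11.8 to 13.5), below the members' intervals in both libraries, whereas distant peaks inside genes at 15.7% in both were within them. All shared peaks held it in 11.4% and 11.1%. The CTCF consensus can hold CAGATGG among its letters. Of the 111 and 100 NEUROD-type matches in member windows 11 in each library overlapped a CTCF match, which accounted for 10 of the 15 and 10 of the 16 members that held both motifs. Without these matches, a setting added later, CAGATGG stood in 9.79% and 8.68% of members, 3.76 and 3.28 times its flank share. Only boxes overlapping the strict CTCF consensus were left out, so boxes inside CTCF matches with 1 mismatch remain in these shares. No match of 1 E-box overlapped a match of the other, and of the CAGCTG matches 1 in replicate 1 and 0 in replicate 2 overlapped a CTCF match.

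E-box matches were less tightly placed than CTCF matches. Of the NEUROD-type matches within 300 bp, 32.1% in each library lay within 40 bp of the midpoint, and of the CAGCTG matches 26.6% and 26.1% did. Footprints covered 32.1% and 32.7% of NEUROD-type matches inside members (26.2% and 28.9% of those outside strict CTCF matches) and 26.9% and 23.9% of CAGCTG matches, both above the footprinted share of member bases. Members with CAGATGG had median signals of 0.834 and 0.759, against 0.910 and 0.806 for members without it, so unlike CTCF the match did not go with higher signal. Sharing between the libraries was similar with it, 65.8% and 76.0%, and without it, 65.3% and 72.9%.

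**Figure D4:**
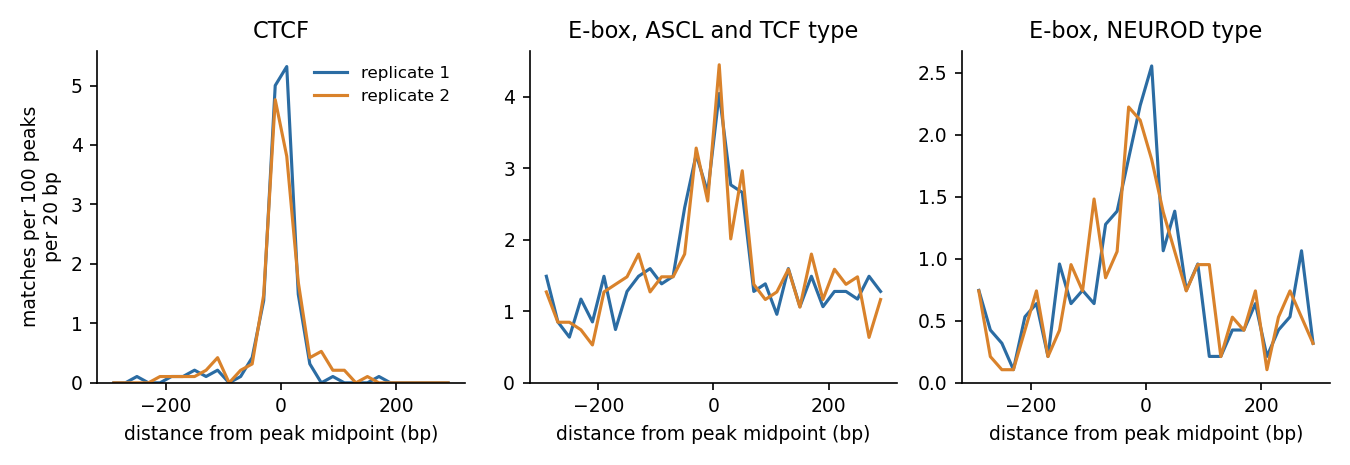
Motif matches per 100 distant intergenic peaks in bins of 20 bp (y axis) by distance of the match from the peak midpoint in bp (x axis), for CTCF and the E-boxes of the ASCL and TCF type (CAGCTG) and the NEUROD type (CAGATGG), 1 line per library. The CTCF matches form a narrow central peak of about 5 per 100 peaks, and the E-box curves are broader and stand on a background that does not reach 0.

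The AP-1 sequence TGAGTCA was scarce. It occurred in 37 members of replicate 1 (3.94%, interval 2.79 to 5.38) and 33 of replicate 2 (3.49%, 2.42 to 4.87), against 2.39% and 2.59% of flanks, so the intervals of members and flanks overlapped. All shared peaks held it in 2.97% and 2.78%. Distant peaks inside genes had it in 6.30% and 6.08%, with intervals that overlap those of the members. Of its matches in member peaks 12.5% and 16% lay in footprints, near the footprinted share of bases. Peaks in this position that held it were less often shared than the rest, 43.5% of 85 against 66.7% in replicate 1 and 54.1% of 61 against 74.1% in replicate 2.

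Among rarer motifs, the NFI consensus, bound by nuclear factor I proteins, stood in 10 and 9 members and in 1 flank window of each library. The LIM-type homeobox core TAATTA stood in 2.77% and 2.86% of members, fewer than the 4.95% and 4.76% of flanks but more than the mean of 1.06% over all shared peaks and 1.86% over nearer intergenic peaks. The MEF2 consensus stood in 18 and 21 members, 1.91% and 2.22%, against 2.66% and 2.86% of flanks and a mean of 0.701% over all shared peaks. GC content also differed between members, flanks and the other peaks, and its part in these differences was not tested. The REST, HNF1 and glucocorticoid receptor consensus sequences had 0 matches in member windows. CTCF or either E-box was present in 355 members of replicate 1 (37.8%) and 334 of replicate 2 (35.3%), against 8.83% and 8.78% of flanks, and 40 and 36 members held 2 or more of these, overlapping matches included. These 3 motifs were the ones in 20 or more members with a share over 1.5 times that of the flanks. An excess of the 3 together over the flanks was therefore fixed by the choice. In 585 and 611 members none of these 3 motifs was found at their strict consensus.

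The strongest sites did not share 1 sequence pattern or 1 kind of neighbour. The site at chr1:102628161-102628360, printed above with its NEUROD-type box, had signals of 7.00 in replicate 1 and 10.9 in replicate 2 (mean 8.95 ± 2.76, SD, n = 2) and 3 footprints in each. It ranked 2 and 1. The site beside Irf2bp2 at chr8:126666501-126666800 had 7.18 and 4.57 (5.88 ± 1.85), so that the top pair exchanged order between the libraries. It had 5 and 4 footprints and, with neighbouring members, formed a cluster of 3 sites within 2.36 kb. The tRNA gene site had 4.50 and 3.88 (4.19 ± 0.440) and 7 and 6 footprints, the most of the 10 strongest sites in replicate 1. It was the only 1 of the 42 sites within 1 kb of a RefSeq transcript start whose RefSeq transcript was a tRNA.

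The other strong sites varied less between the libraries. A site at chr1:75925821-75926020, 374 kb from the anion exchanger gene Slc4a3 and 1452 kb from the ephrin receptor gene Epha4, had 4.33 and 4.56. A site 695.6 kb from Btg1, an antiproliferative gene, and 166 kb from Dcn, which encodes decorin, at chr10:97313041-97313240, had 3.85 and 3.95. At chr4:110050961-110051180, 73.0 kb from the doublesex-related transcription factor gene Dmrta2, signals were 3.24 and 3.29, and the peak had 71.8% GC and a CAGCTG box. The site at chr9:101690241-101690460 lay 171.5 kb from the coding gene 9630041A04Rik and 439 kb from the phosphatase subunit gene Ppp2r3a. It had 3.73 and 5.20, a wider gap. Of the 10 strongest, 6 held no match to any of the 28 motifs at the strict consensus in their central window.

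Of the 5 sites farthest from any annotated start, 3 were below the members' median signal in both libraries and 2 were above it in 1 library. At chr8:102000401-102000575, between the cadherin genes Cdh8 and Cdh11 and 461 kb from the nearest annotated start, signals were 0.578 and 0.583, with 2 footprints in replicate 1 and 0 in replicate 2. A second site between these cadherins, at chr8:101098005-101098170, had 0.569 and 0.592. At chr2:134029761-134029940, 478 kb from the growth factor gene Bmp2, they were 0.531 and 0.944. At chr5:80508801-80509000, between Igfbp7 and Adgrl3, which encodes the adhesion receptor latrophilin 3, they were 0.976 and 0.602, and the site held a CTCF match whose letters overlap a NEUROD-type E-box. Measured to protein-coding starts alone, the 927 sites lay a median of 151 kb away. Of them 368 were 200 kb or more away, 86 were 500 kb or more away, and the largest distance was 2195 kb.

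Members lay mostly alone. The median gap between neighbouring members on a chromosome was 985 kb in replicate 1 and 965 kb in replicate 2, and 13.2% and 13.8% of gaps were 20 kb or less. Linking members within 20 kb gave 15 and 18 clusters of 3 or more, which held 5.32% and 6.24% of members. The largest was at chr2:33542841-33560020, between Zbtb43 and Lmx1b, a LIM homeobox gene of dopaminergic and serotonergic neurons, and its 5 sites, each given by its strongest member, had signals from 0.938 to 3.26 in replicate 1 and from 1.22 to 2.53 in replicate 2. All 5 had a footprint in both libraries. A cluster of 4 sites at chr16:5467690-5480458 lay 218 kb from the coding gene Eef2kmt and 411 kb from a start of the neuronal splicing factor gene Rbfox1. Its signals ran from 0.493 to 1.36 in replicate 1 and from 0.565 to 1.22 in replicate 2. Another of 4, at chr3:153078149-153085509, lay between the sialyltransferase genes St6galnac5 and St6galnac3.

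The territory consisted of 3524 separate stretches, of which 652 held a member in both libraries and 2871 in neither. Of the 62 stretches of 500 kb or more, 34 held none. The stretch with the most members, chr2:178510630-178971133 between Cdh26 and the cadherin gene Cdh4, held 7 in each library, or 15.2 per Mb, and had 46.9% GC. A stretch between Nphp4 and Ajap1 on chromosome 4 and one between Sall1 and Tox3 on chromosome 8, both transcription factor genes, held 5 in each library. The longest without a member, 1156 kb between Dsel and Cntnap5a on chromosome 1, had 37.9% GC and 47.2% repeats. Among the 1246 stretches of 100 kb or more, the 359 with a member in both libraries had a median GC content of 40.2% (quartiles 38.3 and 42.6), and the 887 others had 37.9% (37.0 and 39.5). Median repeat content was 33.7% and 41.6% in the same order. Density also differed between chromosomes, from 1.62 members per Mb on chromosome 19 to 3.85 on chromosome 7 in both libraries.

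The nearest protein-coding start was taken as a label of position, with no statement on which gene a site acts on. The 927 sites had 625 such genes, of which 423 had 1 site. Cdh26 and Nphp4, a cilium gene, had 7 each, and Gm9195, Igsf11 and Tox3 had 5. Igsf11 encodes a synaptic adhesion molecule, and the strongest of its sites had signals of 2.12 and 2.15. Tox3 encodes a calcium-responsive transcription factor, had no stricter peak at its own starts, and its strongest site had 2.34 and 2.13. Runx3, a transcription factor gene of sensory neurons and lymphocytes, had 4 sites in 54 kb of territory, at most 1.47 and 1.65.

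Sites were then counted by lists of genes of known role, with exact 95% Poisson intervals that cover counting error only and treat neighbouring sites as separate. Over all protein-coding genes there were 2.50 sites per Mb of territory, and 25.9% of the 2410 genes with territory nearest to them had a site. Inhibitory neuron genes had 10 sites in 2.69 Mb, 3.72 per Mb (interval 1.78 to 6.84, which holds the overall density), and 6 of the 10 such genes beside territory had a site. Dlx2, a homeobox gene that specifies cortical interneurons, had 2 sites 52.2 kb and farther away, with signals of 1.51 and 1.17 in replicate 1 and 1.19 and 1.08 in replicate 2, and no stricter peak at its starts. Astrocyte genes had 7 sites in 1.83 Mb, 3.82 per Mb (1.53 to 7.87), of which S1pr1, a sphingosine-1-phosphate receptor gene, had 4, with signals between 0.948 and 1.47 in replicate 1 and between 0.667 and 1.57 in replicate 2. The gliogenic factor gene Sox9 had 2, at 312 kb or more, with signals of at most 0.787 and 0.491.

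Synaptic adhesion and axon genes, many of them flanked by long gene-free DNA, had the lowest density of the lists with a site. They had 22 sites in 29.8 Mb, 0.739 per Mb (interval 0.463 to 1.12, below the overall density), near 15 of the 42 genes beside territory, a share of 35.7%. Cdh8 had 3 sites in 1658 kb with signals of at most 0.796 and 0.907, and the protocadherin gene Pcdh17 had 2 in 2078 kb. Transcription factor genes of excitatory neurons and cortical layers had 10 sites in 6.98 Mb, 1.43 per Mb (0.687 to 2.64). Of these, the corepressor gene Tle4 had 3, the closest at 179 kb, with signals of at most 1.15 and 0.981. Neurod6, which marks excitatory neurons and whose own protein binds the CAGATGG box, had 2 sites in 71 kb, with 0.891 and 0.863 in replicate 1 and 0.833 and 0.602 in replicate 2.

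The intervals of the remaining lists all held the overall density. Oligodendrocyte genes had 0 sites in 0.790 Mb (interval 0 to 4.67 per Mb) and endothelial and pericyte genes 0 in 0.634 Mb (0 to 5.82). A density below the overall 2.50 was thus not detectable for these lists. Microglia genes had 2 sites, or 2.78 per Mb, both nearest to Runx1 at 317 kb or more, with signals of at most 0.8435 and 0.6203. Activity-regulated genes had 1, near the stress-response gene Gadd45g at 0.692 and 0.833. Developmental regulators of other lineages had 11 sites in 4.202 Mb, 2.62 per Mb (1.31 to 4.68), among them 2 near the homeobox gene Irx4 with signals of at most 1.54 and 1.98. No housekeeping gene had territory nearest to it. Of the liver, heart, muscle and blood genes, Ptprc and Ryr2 had 1 site each. Ryr2 also had stricter peaks at its own starts in both libraries, at 1.23 and 1.43, whereas Ptprc had none. Over all members of a list the median was 0 sites in every list, as over all genes. Over members beside territory it was 1 for inhibitory neuron genes, 0.5 for liver, heart, muscle and blood genes and 0 for the rest.

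**Figure D5:**
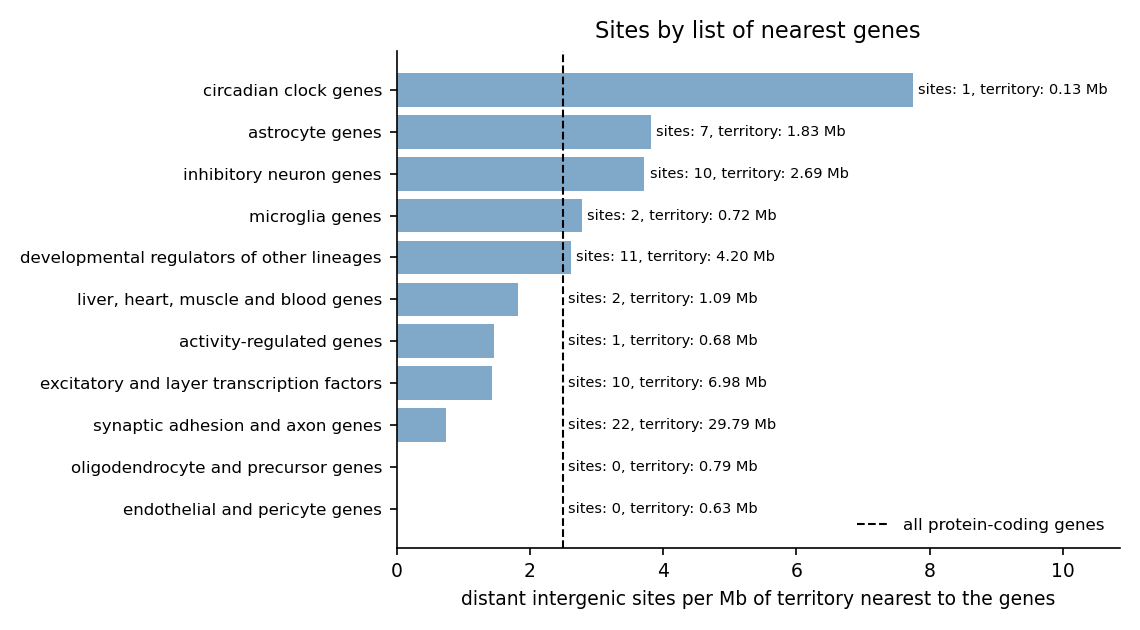
Distant intergenic sites found in both libraries per Mb of territory (x axis) for lists of genes nearest to that territory (y axis), with the number of sites and the Mb written beside each bar. The dashed line marks all protein-coding genes, 2.50 per Mb. Synaptic adhesion and axon genes stand at 0.739 per Mb over 29.8 Mb, and several other bars rest on 0 to 2 sites.

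Whether a site counted as far from a start depended on the annotation. For 25.7% of the sites the nearest annotated start was protein-coding, for 25.03% a processed pseudogene and for 23.3% a long intergenic RNA. By RefSeq as well, 544 of 927 sites (58.7%) were outside gene bodies and 50 kb or more from any start. RefSeq placed 135 inside a gene and 42 within 1 kb of a transcript start, and 35 of those 42 starts belonged to predicted long noncoding RNAs. Besides the tRNA gene and Tln2, these included Gm33327 at chr5:106802481-106802700, with signals of 2.74 and 2.57, and Gm36857, whose start lies 721 bp from the Dlx2 site nearest to that gene. Sites near RefSeq starts had median signals of 0.891 and 0.819, and those distant by both annotations 0.848 and 0.741.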

How the data were processed

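Members and gene and motif lists were chosen with earlier results of these data known. Per the labels the files use mm10. Each library had its own peaks and footprints called by the authors, per their deposited notes. Not given in the sources used here were the aligner, the peak caller and the read totals. The signal value deposited with each peak has no stated normalization. All values were whole multiples of 1 step (0.00948 and 0.00926, tolerance 0.1 step), and members held at least 30 and 26 steps. Depth is otherwise unknown. The deposited FDR table (q-values) keeps values under 0.05, and its lowest value per peak was used only for peaks not shared.

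Positions came from GENCODE M21 and sequence from GRCm38.p6 (RefSeq). Motifs were exact consensus matches on both strands of the central 150 bp, with flanks 1000 bp away. Sites named are the 10 strongest by the worse rank, the 5 farthest from a start, the most unequal pairs, the largest clusters, the genes with most sites and up to 2 per list, except items not reported here. The strongest GC-rich sites, the tRNA site and the RefSeq examples were picked after their values were seen. With 1 group of 2 libraries no p-value was computed. Python 3.11.15, numpy 2.4.6, scipy 1.17.1 and pandas 2.3.3 were used, and scripts were tested on simulated data.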

Additional observations from a re-analysis of the deposited data

How the results depend on the processing

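No paired analysis was possible because the libraries form 1 group. The mean number of members per library, 942.5, was 2145.5 at 25 kb, 259 at 100 kb, 205.5 in the stronger 50% of peaks, 3265 with protein-coding genes only, 2246.5 in the larger list and 550.5 with RefSeq added (an alternative chosen after seeing the data, as was the CTCF mismatch). It was 739.5 when peaks shared 50% of their length. By library it was 940 to 945, a closeness set by the rule that a member overlaps a peak of the other library. Every range by library given here rests on members chosen with both libraries. None shows what 1 library alone would give. The signal ratio to nearer intergenic peaks, 0.690, was 0.727 at 25 kb, 0.672 at 100 kb, 0.907 in the stronger 50% and 0.645 with RefSeq, and 0.682 to 0.699 by library. The footprint share, 88.4%, was 90.3% at 25 kb, 85.3% at 100 kb, 92.0% when peaks shared 50% of their length and 99.8% in the stronger 50%, and 87.1 to 89.7% by library. Median GC, 51.3% in both libraries, was 52.0%, 50%, 53.3% (stronger 50%), 50.8% (whole peak) and 50% (RefSeq). The CTCF share, 13.4%, was 14.7%, 11.4%, 16.1% (50% shared), 19.0% (stronger 50%), 14.5% (300 bp) and 32.1% (1 mismatch), and 12.9 to 13.9% by library. Clusters, 16.5, numbered 53, 1.5, 4 (50% shared), 2.5 (stronger 50%), 9.5 (peaks within 200 bp joined), 40.5 (50 kb links) and 5.5 (RefSeq), and 15 to 18 by library. Nearest genes, 625, numbered 190 at 100 kb, 537 (50% shared), 401 with RefSeq and 741 with starts of every type, and 625 to 626 by library. The signal ratio stayed under 1 and the CAGATGG and CAGCTG ratios to flanks stayed above 1 in every alternative run.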
